A study of Mus musculus with 2 samples.

Results

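B cells were a small group among leukocytes sorted from YUMM1.7 melanomas, a mouse tumour line, grown under the flank skin of human APOE knock-in mice. The B cells are the cells that the authors' annotation names B cells: 98 of 10050 annotated cells, with 62 of 5385 from APOE4 mice and 36 of 4665 from APOE2 mice. APOE4 and APOE2 mice carry the human allele of that name in place of mouse Apoe, so neither group is an unmodified control. Each host received 100000 tumour cells in Matrigel, and tumours were removed on day 19. From each of 6 mice per genotype 10000 living CD45+ cells were sorted, which selects leukocytes, and the 60000 cells of a genotype were pooled into 1 library of 10x Genomics 3' v3 chemistry. The age, sex and strain of the mice were not given in the sources used here. Since cells of the 6 mice cannot be told apart, there is 1 sample per genotype: no test of genotype was possible, and every interval below is a 95% interval of counting error alone, which leaves out the spread between mice and between cells.

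B cells carry a membrane immunoglobulin as their antigen receptor, which signals through the partner chains CD79A and CD79B. Resting B cells express the surface protein CD20 (gene Ms4a1) and the lineage factor PAX5, and present antigen on MHC class II. When a B cell becomes an antibody-secreting plasma cell it shuts down PAX5 and its targets, enlarges its secretory pathway through XBP1, and makes the J chain (Jchain) that links immunoglobulin M and A into polymers. The 12 immunoglobulin constant genes of the gene lists were not analysed here, so class and isotype are not described.

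Expression is given as CPM: the unique molecules (UMIs) of a gene summed over the B cells of a library, per 1000000 UMIs of all genes in those cells. The B cells held 357057 UMIs in the APOE4 library and 132899 in the APOE2 library, with medians of 3964 and 2366 UMIs and 1594 and 1167 genes per cell. Over all annotated cells the order was the reverse, with medians of 5560 UMIs in APOE4 and 7160 in APOE2, from totals of 36046103 and 38959426 UMIs. After every cell was thinned to 1500 UMIs the medians were 786.5 genes in APOE4 and 797 in APOE2 B cells, so the difference in genes per cell went with depth. No B cell barcode occurred in both libraries, and 9 barcodes were shared among all 10752.

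The share of B cells among annotated cells was 1.15% in APOE4 (exact Clopper-Pearson interval 0.884 to 1.47%) and 0.772% in APOE2 (0.541 to 1.07%). The ratio APOE4/APOE2 was 1.49 with an interval of 0.991 to 2.25, which includes 1. Among lymphoid labels alone the order was the other way: B cells made up 3.46% of 1790 lymphoid cells in APOE4 and 4.71% of 764 in APOE2, a ratio of 0.735 (0.492 to 1.10). The direction therefore turned with the denominator, and neither of these intervals was clear of 1. With all barcodes as denominator the ratio was 1.53 (1.02 to 2.31), an interval just above 1. Intervals above 1 were also found when barcodes outside the annotation were counted, as given below. A share is set by the other cells in the sort as much as by B cells, and fewer B cells cannot be told apart from more of the rest.

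Cd79a, Ms4a1 and Pax5 were high in the labelled cells and close to absent elsewhere. The labelled cells come from a cluster of these same data, so these levels describe the label and do not test it. Jchain, also used as a marker, was at 0 in 57 APOE4 and 34 APOE2 labelled cells and is described below. Cd79a (mm10, chr7:24897381-24902197) had 1571 CPM in APOE4 and 2190 CPM in APOE2 B cells, against 2.07 and 0.361 CPM in all other annotated cells of those libraries. It had a UMI in 97 of the 98 B cells. CD8+ T cells, which do not express it and had medians of 3456 UMIs in APOE4 and 3530 in APOE2, held it in 0 of 477 and 0 of 113 cells, which allows shares of cells with a UMI of up to 0.629% and 2.65%. Ms4a1 (chr19:11249675-11266241) had 913 CPM in APOE4 and 926 CPM in APOE2 B cells, against 0.645 and 0.386 CPM in the other cells. Pax5 (chr4:44524757-44710487) had 288 CPM in APOE4 and 384 CPM in APOE2 B cells, against 0.280 and 0.0515 CPM in the other cells. A cell was counted as positive for B cell markers when it held at least 2 UMIs over at least 2 of 4 B cell surface genes, among them Cd79a, Cd79b and Ms4a1, and all 62 and 36 labelled cells met that count.

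Of 3625 genes with at least 20 UMIs in B cells, 127 (3.5%) were at least 4-fold higher in B cells than in all other annotated cells. These genes were chosen on the cells that the authors clustered, so the folds describe the label and test nothing. The 25 highest, of which 24 are described, among genes with at least 50 UMIs and a UMI in at least 20% of B cells, were led by Fcmr, the receptor that binds the constant part of immunoglobulin M, with 370 CPM in APOE4 and 587 CPM in APOE2 B cells and 0.252 and 0.129 CPM elsewhere. Pax5, Ms4a1 and Cd79a followed. Next came Ebf1, a factor that commits progenitors to the B lineage (879 and 1249 CPM in APOE4 and APOE2 B cells), Vpreb3, Gm43603, the B cell co-activator Pou2af1, the signalling adaptor Bank1, Mzb1, a chaperone that helps to assemble immunoglobulin, and the inhibitory receptor Cd22. The BAFF receptor Tnfrsf13c, the follicle-homing receptor Cxcr5, Cd79b, the fatty acid desaturase Scd1, the complement regulator Cd55, Rasgrp3, Ralgps2, Gm43291, Ly6d, Cmah, Fcrla, Gm15987 and Snn completed the list.

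Of the 24 genes, 21 were highest in B cells among the 26 labels. The exceptions were Ly6d and Fcrla, highest in plasmacytoid dendritic cells (pDCs), and Snn, highest in migratory dendritic cells. Ly6d had 1512 CPM in APOE4 and 1859 CPM in APOE2 B cells, against 2924 and 1978 CPM in pDCs. Mzb1 was also found in pDCs, with 193 CPM in APOE4 and 319 CPM in APOE2 pDCs, against 1720 and 1655 CPM in B cells. Siglech, Ccr9, Cox6a2 and Klk1, 4 genes used as pDC markers, summed to 1 UMI over the 62 APOE4 B cells and 0 over the 36 APOE2 B cells. A wider list of 13 pDC markers, 3 of them with at least 20 UMIs, went the other way. It summed to 2431 CPM in APOE4 and 2363 CPM in APOE2 B cells, against 17252 and 15820 CPM in pDCs. All other annotated cells had 1619 and 896 CPM, and B cells ranked 2 of 26 labels.

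**Figure D1:**
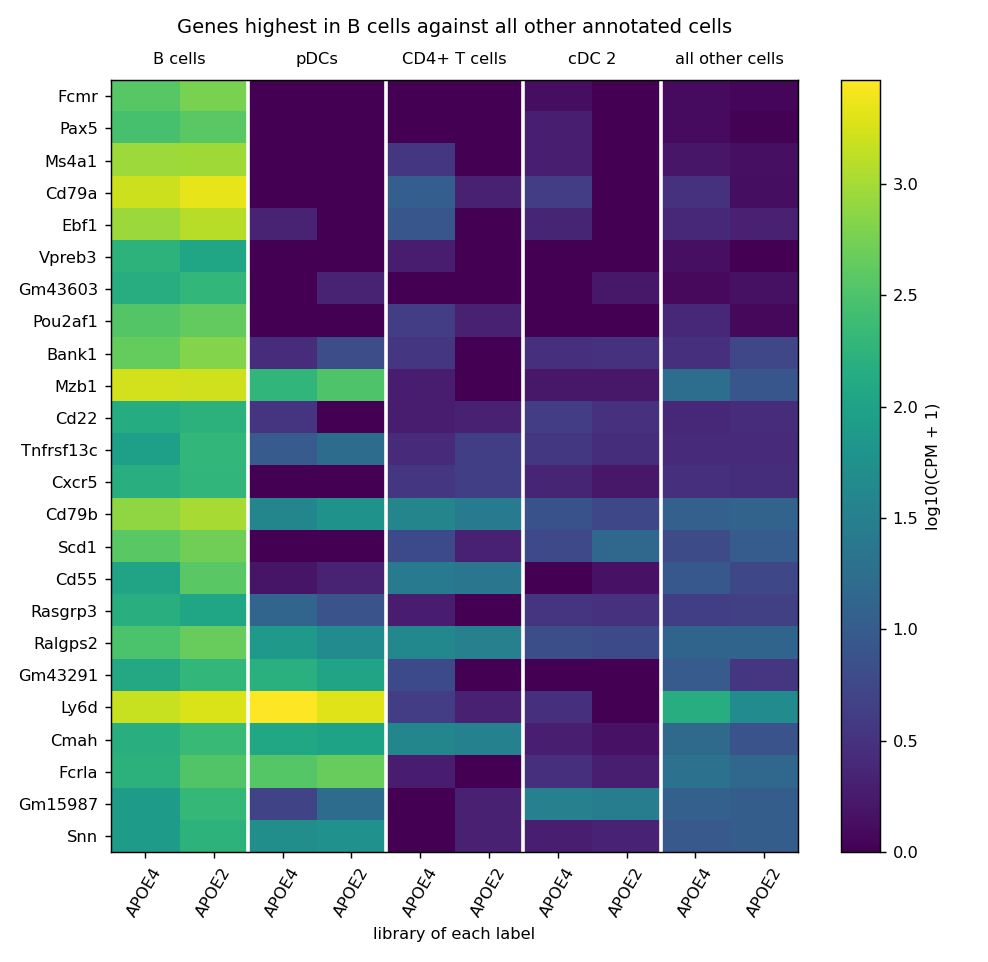
Level of 24 of the 25 genes highest in B cells (rows, log10(CPM + 1)) in B cells, pDCs, CD4+ T cells, cDC 2 and all other annotated cells, with the APOE4 library left of the APOE2 library in each pair. Cd79a reached 1571 CPM in APOE4 and 2190 CPM in APOE2 B cells, and Ly6d and Fcrla were brighter in pDCs than in B cells.

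Genes of the receptor complex were concentrated in B cells. Of 20 genes of the B cell receptor and its co-receptors, 19 had at least 20 UMIs and 13 of them were at least 4-fold higher in B cells than elsewhere, against 3.5% of all genes. These included Cd79b (787 CPM in APOE4 and 1038 CPM in APOE2 B cells), the kinase Blk (84.0 and 105 CPM), the complement receptor Cr2 (64.4 and 67.7 CPM) and Fcrl1 (78.4 and 75.2 CPM). Lyn, Vav1 and Plcg2, signalling proteins that myeloid or T cells also use, had 160, 58.8 and 89.6 CPM in APOE4 B cells and 203, 37.6 and 120 CPM in APOE2 B cells. Of 20 lineage factors 19 had at least 20 UMIs, and 10 were at least 4-fold higher in B cells, among them Pou2af1 and Bach2, a repressor that holds back plasma cell fate.

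Mitochondrial RNA was high in these cells. The median share of mitochondrial UMIs was 7.36% in APOE4 B cells and 7.12% in APOE2 B cells, against 3.24% and 3.77% in all annotated cells of those libraries. Over both libraries B cells ranked 2 of 26 labels by this measure, after skin resident macrophages. At least 8% mitochondrial UMIs were found in 37.1% of APOE4 and 30.6% of APOE2 B cells, against 2.10% and 3.34% of all annotated cells. No annotated cell reached 10%. Outside the annotation 12 APOE4 and 6 APOE2 barcodes were positive for B cell markers, all with more mitochondrial RNA than that (10.1 to 30.9%). The 18 barcodes made up 15.5% of these and the labelled B cells together (9.46 to 23.4%), whereas 6.53% of all barcodes were outside the annotation. With the labelled B cells and these barcodes counted over all barcodes, the share was 1.301% of 5689 in APOE4 and 0.830% of 5063 in APOE2, a ratio of 1.57 (1.08 to 2.29). With marker-positive cells of other labels also counted, 7 in APOE4 and 5 in APOE2, the ratio was 1.53 (1.07 to 2.19).

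**Figure D2:**
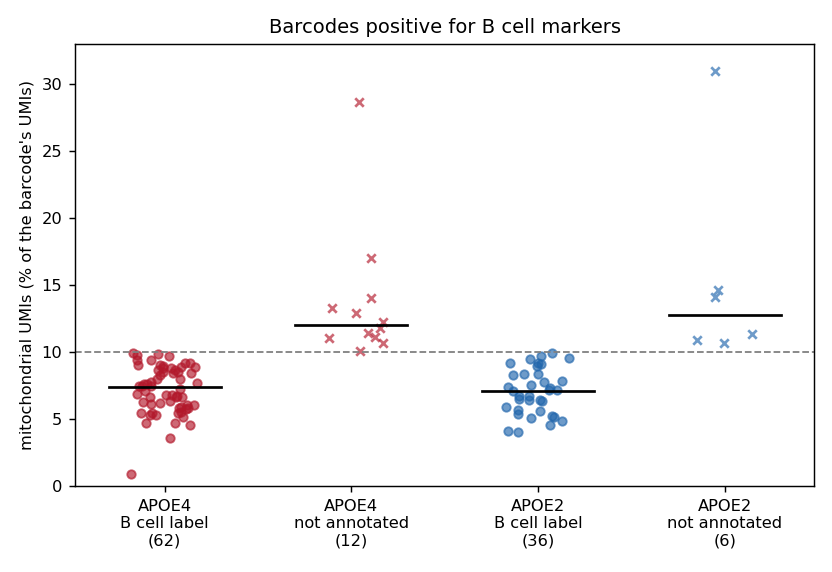
Mitochondrial UMIs as a percent of each barcode's UMIs, for the labelled B cells (circles) and for barcodes outside the annotation that were positive for B cell markers (crosses); APOE4 is left of APOE2, black bars are medians and the dashed line is 10%. The labelled cells end just under the line, with medians of 7.36% and 7.12%, and the 12 APOE4 and 6 APOE2 crosses all lie above it.

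Genes of resting, recirculating B cells were found in most of the cells. At least 3 of the 16 measured genes of the naive and follicular list were detected in 55 of 62 APOE4 and 34 of 36 APOE2 B cells, and in 43 and 29 cells after thinning to 1500 UMIs. In CD8+ T cells, which share some of these genes, at least 3 were found in 30.8% of APOE4 and 41.6% of APOE2 cells (11.2 and 17.1% after thinning). Ccr7, the receptor that leads cells to lymph nodes, had 400 CPM in APOE4 and 647 CPM in APOE2 B cells. Cxcr5 had 154 CPM in APOE4 and 188 CPM in APOE2 B cells, against 2.02 and 1.83 CPM elsewhere. Fcer2a, which encodes CD23 of follicular B cells, had 86.8 CPM in APOE4 and 128 CPM in APOE2 B cells, and Cr2, high on follicular and marginal zone cells, was seen in 14 and 6 cells.

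Genes of germinal centre and of dividing cells summed to lower levels in B cells than in all other annotated cells. Of 13 genes of germinal centre B cells, 2 had at least 20 UMIs, while Mef2b, Gcsam and Mybl1 had 0 in both libraries. The list summed to 389 CPM in APOE4 and 414 CPM in APOE2 B cells, against 693 and 851 CPM elsewhere. At least 3 germinal centre genes were found in 12 APOE4 and 3 APOE2 cells, and in 1 and 0 cells at equal depth. That was 15.3% of B cells against 1.36% of CD8+ T cells, and 1.02% against 0% at equal depth. Mki67, present in dividing cells, had 3 UMIs in APOE4 and 0 in APOE2 B cells, and all 3 lay in Jchain cells described next. The 20 proliferation genes summed to 1347 CPM in APOE4 and 1136 CPM in APOE2 B cells, the rank 4 from the lowest of 26 labels in each library. Il10, the cytokine by which regulatory B cells are often defined, had 5 UMIs in 2 APOE4 cells and 6 UMIs in 2 APOE2 cells. Several lists could not be read as B cell states, because CD8+ T cells held their genes at a like or a higher share. After thinning at least 3 members were found of the activated list in 85.7% of B cells and 90.7% of CD8+ T cells, of the B1 and marginal zone list in 27.6% and 22.8%, of the memory list in 5.10% and 8.75%, and of the regulatory list in 4.08% and 33.5%. Plasma cell genes gave 60.2% of B cells and 36.5% of CD8+ T cells.

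Jchain split the label. It had 4785 UMIs in APOE4 and 117 UMIs in APOE2 B cells (chr5:88519809-88527891), and all of them lay in 5 of 62 APOE4 cells and 2 of 36 APOE2 cells. The other 57 and 34 B cells held 0. A count of 0 over a group allows up to 3 UMIs, so a low level spread over those cells cannot be told from none. By share of cells, 8.06% of APOE4 B cells (2.67 to 17.8%) and 5.56% of APOE2 B cells (0.680 to 18.7%) carried it, intervals that overlap.

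The 5 APOE4 cells held 1515, 1415, 1173, 401 and 281 Jchain UMIs, which was 14.7, 11.3, 11.0, 4.33 and 1.83% of all their RNA. Every one of them had 0 UMIs of Ms4a1 and Pax5 and at most 3 UMIs of H2-Aa, an MHC class II chain. All 5 had at least 21 UMIs of Xbp1, at least 33 of Mzb1 and at least 8 of the secretory pathway isomerase Txndc5. Cd79a remained in all 5, at 3 to 12 UMIs. Sdc1, which encodes the plasma cell surface protein CD138, had UMIs in 4 of them (9, 1, 10 and 3). They held 9269 to 15360 UMIs each, so that these 5 cells supplied 16.3% of all UMIs of the APOE4 B cells. Jchain, Xbp1, Mzb1, Txndc5 and Sdc1 are genes that plasma cells express. The plasma cell marker Tnfrsf17 had 10 UMIs in 4 of these 5 cells. Prdm1, also used as a plasma cell marker, had 1 UMI in 1 of them. That was 17.2 CPM, against 13.4 CPM in the APOE4 B cells without Jchain. Irf4 had 3 UMIs in 1 of the 5, 51.6 CPM against 93.7 CPM in the APOE4 B cells without Jchain.

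The 2 APOE2 cells differed from these. They held 71 and 46 Jchain UMIs, with 89 and 53 UMIs of Mzb1 and 5 and 8 of Xbp1. Unlike the APOE4 cells they kept H2-Aa (25 and 22 UMIs). Ms4a1 had 1 UMI in each, too few to set them apart. Ebf1 was at 0 in both and at no more than 1 UMI in any of the APOE4 cells. Sdc1 and Tnfrsf17 were at 0 in both APOE2 cells, and Txndc5 had 1 and 2 UMIs. These 2 cells were shallower, with 6138 and 4231 UMIs. Cd74, the invariant chain of MHC class II, was present in both sets, at 16 to 95 UMIs in the APOE4 cells and 133 and 78 UMIs in the APOE2 cells. They supplied 7.80% of the UMIs of APOE2 B cells.

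**Figure D3:**
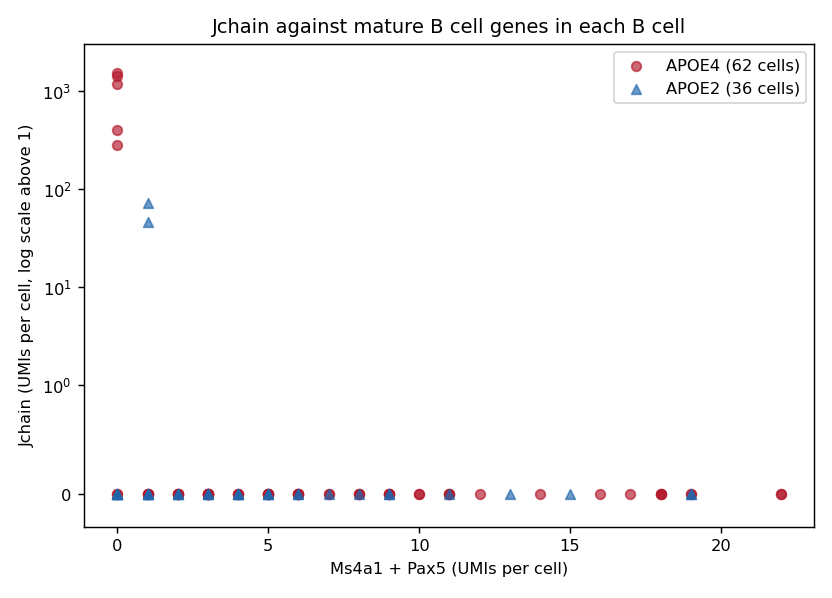
Jchain UMIs (vertical, logarithmic above 1) against the summed UMIs of Ms4a1 and Pax5 (horizontal) in each B cell; red circles are 62 APOE4 cells and blue triangles 36 APOE2 cells. The 5 APOE4 cells with 281 to 1515 Jchain UMIs sit at 0 on the horizontal axis, the 2 APOE2 cells with 46 and 71 sit near it, and all others lie on the baseline.

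RNA of other lineages lay in a few cells. At least 3 UMIs of another lineage's defining markers were found in 9 of 62 APOE4 B cells (14.5%, 6.86 to 25.8%) and 3 of 36 APOE2 B cells (8.33%, 1.75 to 22.5%), and none of these 12 carried Jchain. They were deeper, with medians of 7130 UMIs in APOE4 and 7001 in APOE2, against 3602 and 2262 in cells with neither feature. In APOE4, 7 of the 9 held T cell markers (5 to 17 UMIs each), 3 held NK cell markers (4 to 6 UMIs), 2 held monocyte and macrophage markers (16 UMIs each), 1 held 133 UMIs of neutrophil markers and 1 held 22 UMIs of dendritic cell markers, some of them several of these. In APOE2, all 3 held monocyte and macrophage markers (28, 52 and 49 UMIs). T cell markers summed to 221 CPM in APOE4 and 15.1 CPM in APOE2 B cells, against 75.0 and 148 CPM in NK cluster 2. NK cell markers summed to 56.0 CPM in APOE4 and 0 CPM in APOE2 B cells. Monocyte and macrophage markers summed to 140 CPM in APOE4 and 1068 CPM in APOE2 B cells, against 91.6 and 398 CPM in CD8+ T cells. Stromal markers were at 0 in both, and mast cell markers had 2 UMIs in APOE4 and 0 in APOE2 B cells. No doublet caller was run, and whether these 12 cells are doublets was not tested. The gene lists are compared between the libraries with all B cells and again without the 7 Jchain cells and these 12 cells, which leaves 48 APOE4 and 31 APOE2 cells. Summed UMIs give deep cells more weight. Of the APOE4 cells kept, 2 held 27230 and 26034 UMIs, while the deepest APOE2 B cell held 8908. How far these 2 cells carry the values in the kept cells was not tested.

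The libraries differed across many genes by counting. Of 3625 genes with at least 20 UMIs in B cells, 466 (12.9%) were at least 2-fold higher and 197 (5.43%) at least 2-fold lower in APOE4 than in APOE2 B cells, and the median gene had a log2 ratio of 0.08. Without the 19 cells, 303 of 2586 genes (11.7%) were at least 2-fold higher and 146 (5.65%) at least 2-fold lower, with a median of 0.04. By direction alone, 1958 of the 3625 genes were higher and 1667 lower in APOE4. Without the 19 cells 1368 of the 2586 genes were higher and 1218 lower. These percents and counts are the background against which each gene list is read. Many of the genes had few UMIs: among 1526 genes with at least 50 UMIs, 8.13% were at least 2-fold higher and 3.21% at least 2-fold lower. The minimum was summed over both libraries, of 357057 UMIs in APOE4 and 132899 in APOE2 B cells. A gene could thus pass on APOE4 counts alone at a lower CPM than on APOE2 counts alone. With every cell thinned to 1500 UMIs, 7.57% of 1109 genes were at least 2-fold higher and 4.6% at least 2-fold lower.

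Plasma cell genes were higher in APOE4, and most of that difference lay in the Jchain cells. T cell and NK cell markers, mostly at 0 in APOE2, had medians of 1.99 (6 genes) and 2.77 (5 genes) with such genes set at 3 UMIs, and 2 neutrophil markers had 3.39. Without the 12 cells with another lineage's markers and the Jchain cells, none of these had enough UMIs. Of 22 plasma cell genes 20 had at least 20 UMIs, and 19 of them were higher in APOE4. In all B cells 13 were at least 2-fold higher, against 12.9% of all genes, and the median log2 ratio was 1.21. Txndc5 had 262 UMIs (734 CPM) in APOE4 and 11 UMIs (82.8 CPM) in APOE2 B cells. Fkbp11, a folding enzyme of the secretory pathway, had 140 CPM in APOE4 and 22.6 CPM in APOE2 B cells. Without the Jchain cells 12 of the genes had enough UMIs, 6 were higher and 6 lower, and the median was 0.04. Without all 19 cells 6 of 11 were higher, 4 at least 2-fold against 11.7% of all genes. None was 2-fold lower, and the median was 0.34. Txndc5 then had 15 UMIs in APOE4 and 7 in APOE2, a ratio of 0.962 (0.369 to 2.79), and Fkbp11 2 and 0 UMIs. The interval of Mzb1 included 1 in both settings, with a ratio of 1.04 (0.889 to 1.22) in all B cells and 0.916 (0.692 to 1.22) without the 19 cells. The chaperones Hsp90b1 and Hspa5 were higher in APOE4 also without the 19 cells: Hsp90b1 had 686 CPM in APOE4 and 327 CPM in APOE2, a ratio of 2.10 (1.44 to 3.14), and Hspa5 had 707 and 327 CPM, a ratio of 2.17 (1.49 to 3.23).

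Interferon-induced genes were higher in APOE4 B cells with and without those cells. Of 49 measured genes of the type I interferon list 28 had at least 20 UMIs, 23 were higher in APOE4 and 15 were at least 2-fold higher, against a background of 12.9% of all genes. None was 2-fold lower, and the median log2 ratio was 1.06, also with the 1 gene at 0 in a library set at its bound of 3 UMIs. In the 48 APOE4 and 31 APOE2 cells that remain without the 19, 15 of 17 genes were higher, 8 at least 2-fold against a background of 11.7%, and the median was 0.93. Ifi27l2a had 1482 CPM in APOE4 and 512 CPM in APOE2 B cells, and without the 19 cells 1005 and 317 CPM, a ratio of 3.17 (2.19 to 4.71). Ly6a, an interferon-induced surface protein also known as Sca-1 (chr15:74994877-74998031), had 862 UMIs (2414 CPM) in APOE4 and 129 UMIs (971 CPM) in APOE2 B cells. Its ratio was 2.49 (2.06 to 3.02) with all cells and 1.69 (1.33 to 2.17) without the 19, and it was detected at equal depth in 72.6% of APOE4 and 38.9% of APOE2 cells. Zbp1, a sensor of nucleic acids, had 179 CPM in APOE4 and 67.7 CPM in APOE2 B cells, with ratios of 2.65 (1.31 to 6.05) and 3.70 (1.32 to 14.4).

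The list had limits in these cells. Ly6e, which interferon also induces, had 1490 CPM in APOE4 and 1753 CPM in APOE2 B cells, a ratio of 0.850 (0.727 to 0.996), and Sp100 had 339 and 361 CPM. Isg15, a ubiquitin-like protein often used as a marker of this response, had 101 CPM in APOE4 and 60.2 CPM in APOE2 B cells, against 892 and 248 CPM in other cells, and its ratio of 1.68 had an interval of 0.766 to 4.17. Summed over the list, B cells held 9125 CPM in APOE4 and 5169 CPM in APOE2, against 19234 and 10758 CPM in pDCs, 17441 and 11081 CPM in CD4+ T cells and 14762 and 5275 CPM in cDC 2. By the mean over libraries B cells ranked 14 of 26 labels. The summed level was higher in APOE4 in 26 of 26 labels, by 1.31-fold to 3.07-fold, and the 1.77-fold of B cells ranked 8 from the lowest, so the direction was not particular to B cells.

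Genes that respond to interferon gamma gave a mixed picture in all B cells: 18 of 30 had at least 20 UMIs, 12 were higher and 6 lower. Of the 18, 8 were at least 2-fold higher, against 12.9% of all genes, and the median was 0.86. Without the 19 cells 10 of 12 were higher, 7 at least 2-fold against 11.7% of all genes, with a median of 1.37. Ifi47, an interferon-induced GTPase, had 48 UMIs (134 CPM) in APOE4 and 3 UMIs (22.6 CPM) in APOE2 B cells, a ratio of 5.96 (1.92 to 29.9), and 7.18 (1.83 to 61.9) without the 19. Socs3, a feedback inhibitor of cytokine signals, was on the other side, with 95.2 CPM in APOE4 and 181 CPM in APOE2 B cells and ratios of 0.527 (0.304 to 0.929) and 0.531 (0.289 to 0.982). Irf8, a factor shared by B cells and dendritic cells, had 482 CPM in APOE4 and 233 CPM in APOE2 B cells, a ratio of 2.06 (1.40 to 3.13) with all cells and 2.62 (1.72 to 4.15) without the 19. A single cell supplied 24.1% of its UMIs. Summed over the interferon gamma list, the level was higher in APOE4 in 26 of 26 labels, by 1.09-fold to 3.79-fold. The 1.76-fold of B cells ranked 11 from the lowest, so this direction was not particular to B cells either.

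MHC class I and class II genes went different ways. Of 18 genes of class I presentation 17 had at least 20 UMIs and 16 were higher in APOE4, with a median of 0.69. Only 3 of the 17 reached 2-fold, against 12.9% of all genes. The heavy chain H2-K1 had 3487 CPM in APOE4 and 2363 CPM in APOE2 B cells, a ratio of 1.48 (1.303 to 1.676). Ratios were larger for genes of the immunoproteasome, which cuts proteins into peptides for class I. Psmb9 had 350 CPM in APOE4 and 135 CPM in APOE2 B cells, a ratio of 2.58 (1.57 to 4.50), and Psmb8 had 703 and 391 CPM, a ratio of 1.80 (1.33 to 2.47). Psme2, a subunit of the proteasome activator, had 105 UMIs (294 CPM) in APOE4 and 10 UMIs (75.2 CPM) in APOE2 B cells, a ratio of 3.91 (2.04 to 8.39). Without the 19 cells 13 of 16 class I genes were higher and the median was 0.45. The ratio of Psmb9 was then 3.14 (1.71 to 6.32) and that of Psme2 5.16 (2.25 to 14.6), while B2m, the light chain, went to 1.18 (0.970 to 1.43) against 1.62 (1.41 to 1.87) in all B cells. The summed class I level was higher in APOE4 in 26 of 26 labels.

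Class II genes leaned slightly lower in APOE4. Of 14 genes 11 were lower and 3 higher, none reached 2-fold in either direction, and the median was -0.21 in all B cells and -0.12 without the 19. H2-Aa had 3058 CPM in APOE4 and 3920 CPM in APOE2 B cells, a ratio of 0.780 (0.702 to 0.868). In the 48 and 31 remaining cells it had 3817 and 4141 CPM and a ratio of 0.922 (0.821 to 1.04). Cd74 had 9640 CPM in APOE4 and 12822 CPM in APOE2 B cells, and its ratio was 0.752 (0.709 to 0.797) in all and 0.860 (0.805 to 0.918) without the 19. In level, B cells ranked 10 of 26 labels for this list, with 20831 CPM in APOE4 and 26366 CPM in APOE2, between pDCs (14025 and 13075 CPM) and cDC 2 (54208 and 67216 CPM). CD4+ T cells had 1164 and 1126 CPM.

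Naive and follicular genes were lower in APOE4. Of 16 measured genes 14 were lower and 2 higher, 4 were at least 2-fold lower against a background of 5.43% of all genes, and the median log2 ratio was -0.75. With the 19 cells left out 13 of 15 were lower, 5 at least 2-fold against 5.65% of all genes, with a median of -0.73. Cd55, which protects cells from complement, had 37 UMIs (104 CPM) in APOE4 and 50 UMIs (376 CPM) in APOE2 B cells, a ratio of 0.275 (0.175 to 0.430), and 0.332 (0.207 to 0.528) without the 19. Klf2, a factor that keeps lymphocytes resting and recirculating, had 353 CPM in APOE4 and 617 CPM in APOE2 B cells, a ratio of 0.572 (0.430 to 0.765), and 0.455 (0.329 to 0.628) without the 19. Ccr7 had a ratio of 0.619 (0.470 to 0.818) and Tnfrsf13c, needed for survival on BAFF, 0.458 (0.265 to 0.8003), and both kept intervals under 1 without the 19 cells. At equal depth Cd55 was detected in 24.2% of APOE4 and 50% of APOE2 cells, and Klf2 in 30.6% and 50%. The exceptions were Il4ra (92.4 CPM in APOE4 and 60.2 CPM in APOE2 B cells) and Bcl2 (112 and 105 CPM), neither clear of a ratio of 1. Genes induced by tissue dissociation had a median of -0.10 in all B cells and -0.46 without the 19, with 11 of 17 and 11 of 15 lower in APOE4, and their part in the naive and follicular result was not tested.

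The receptor complex leaned the same way by a smaller amount: 16 of 19 genes were lower in APOE4, and the median was -0.33. Of the 19, 2 were at least 2-fold lower, against 5.43% of all genes. With the 19 left out 15 of 18 were lower, none 2-fold, and the median was -0.31. Syk, the kinase that first reads the receptor, had 238 CPM in APOE4 and 542 CPM in APOE2 B cells, a ratio of 0.439 (0.317 to 0.610), and 0.508 (0.355 to 0.729) without the 19 cells. Ms4a1 had a ratio of 0.987 (0.799 to 1.22). Among 13 trafficking genes with enough UMIs 8 were lower, and 9 of 11 without the 19, such as the integrin chain Itga4 at 0.573 (0.415 to 0.795) and the chemokine receptor Cxcr4 at 0.511 (0.339 to 0.775). Without the 19 these ratios were 0.426 (0.289 to 0.627) for Itga4 and 0.460 (0.292 to 0.725) for Cxcr4. Among inhibitory receptors 6 of 7 were lower, with a median of -0.35, and 5 of 6 without the 19, but after thinning to equal depth the median of 5 genes turned to 0.44. The lower ones included Fcgr2b, the receptor through which immunoglobulin G restrains B cells, with 28 UMIs (78.4 CPM) in APOE4 and 43 UMIs (324 CPM) in APOE2 B cells. Its ratio was 0.242 (0.145 to 0.399), and 0.332 (0.166 to 0.649) without the 19 cells, 3 of which are the APOE2 cells with macrophage RNA, a lineage that also expresses it.

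By a rule on size and spread over cells, 12 genes in each direction were taken from 2252 eligible genes. These had at least 30 UMIs, with no single cell above 25% of them. In the library where the gene was higher, its level in B cells was also at least 50% of that elsewhere. A gene could pass on that library alone: Sdf2l1 had 15.05 CPM in APOE2 B cells, against 130.7 CPM in all other APOE2 cells. Prdx4, Spcs1, Uqcrq, Psme2, Bst2 and Slamf7 were likewise under 50% of the level elsewhere in APOE2. On the lower side Fcgr2b, Klf3, Klf4, Apoe and Zfp36l2 were under 50% in APOE4. All of these entered only through the library where they were higher, so their place among the named genes is no support for the difference. On the higher side 222 of the 2252 had intervals above 1 and on the lower side 189 had intervals below 1. The 12 highest were Sdf2l1, Rexo2, Prdx4, Ppa1, Ifi27l2a, Spcs1, Uqcrq, Ly6a, Psme2, Glipr1, Bst2 and Slamf7. Of these, 6 kept an interval above 1 without the 19 cells, namely Sdf2l1, Ppa1, Ifi27l2a, Uqcrq, Ly6a and Psme2. Sdf2l1, a cofactor of folding in the secretory pathway, had 72 UMIs in 13 APOE4 cells and 2 UMIs in 2 APOE2 cells, and 26 and 0 UMIs without the 19 cells. Rexo2, a nuclease that degrades very short RNA, had 389 CPM in APOE4 and 60.2 CPM in APOE2 B cells, a ratio of 6.47 (3.19 to 15.3), and 2.25 (0.844 to 7.51) without the 19. Bst2, an interferon-induced protein that tethers virus particles and is abundant on pDCs and plasma cells, had 445 CPM in APOE4 and 135 CPM in APOE2 B cells, a ratio of 3.29 (2.01 to 5.69), and 1.91 (0.867 to 4.77) without the 19. Uqcrq, a subunit of respiratory complex III, had 269 and 60.2 CPM, and its ratio was 4.47 (2.18 to 10.6) with all and 3.97 (1.71 to 11.3) without the 19. Ppa1, an inorganic pyrophosphatase, had 199 and 30.1 CPM, with ratios of 6.61 (2.47 to 24.9) and 5.84 (1.85 to 29.5).

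**Figure D4:**
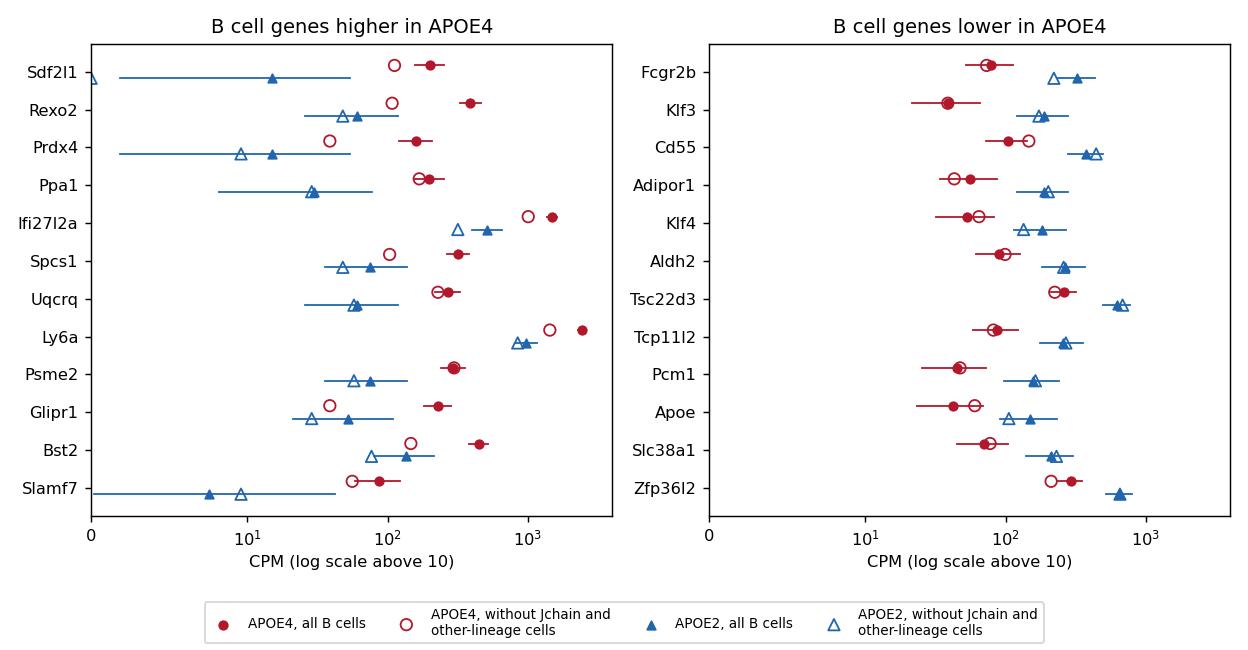
CPM of the 12 highest and 12 lowest genes by ratio in APOE4 (red circles) and APOE2 (blue triangles) B cells on an axis that is logarithmic above 10; lines are exact Poisson 95% intervals for all B cells, and open symbols leave out the 7 Jchain cells and the 12 cells with another lineage's markers. Open and filled red circles part for Rexo2, Glipr1 and Bst2 and lie close together for Ppa1 and Psme2.

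The 12 lowest were Fcgr2b, Klf3, Cd55, Adipor1, Klf4, Aldh2, Tsc22d3, Tcp11l2, Pcm1, Apoe, Slc38a1 and Zfp36l2, and 10 of them kept an interval below 1 without the 19 cells, all but Klf4 and Apoe. Tsc22d3, a glucocorticoid-induced leucine zipper protein, had 93 UMIs (260 CPM) in APOE4 and 83 UMIs (625 CPM) in APOE2 B cells, a ratio of 0.417 (0.307 to 0.568), and 0.329 (0.225 to 0.477) without the 19. Zfp36l2, which binds and destabilises mRNAs and holds lymphocytes quiescent, had 104 UMIs (291 CPM) in APOE4 and 86 UMIs (647 CPM) in APOE2 B cells, a ratio of 0.450 (0.335 to 0.606), and 0.323 (0.219 to 0.474) without the 19. Klf3, a transcription factor of the Krüppel-like family, had 39.2 CPM in APOE4 and 188 CPM in APOE2 B cells, a ratio of 0.208 (0.100 to 0.417), and 0.225 (0.0888 to 0.526) without the 19. After thinning to equal depth its log2 ratio in all B cells was -0.61, against -2.26 before. Apoe had 15 UMIs (42.0 CPM) in APOE4 and 20 UMIs (150 CPM) in APOE2 B cells, against 88.0 and 158 CPM in all other cells. Reads were counted on the mouse gene while the mice carry human APOE, so these UMIs check neither genotype. Its highest level over labels was in macrophages (Mø cluster 2), and with the 19 cells left out 14 UMIs in APOE4 and 11 in APOE2 remained, a ratio of 0.571 (0.241 to 1.39).

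**Figure D5:**
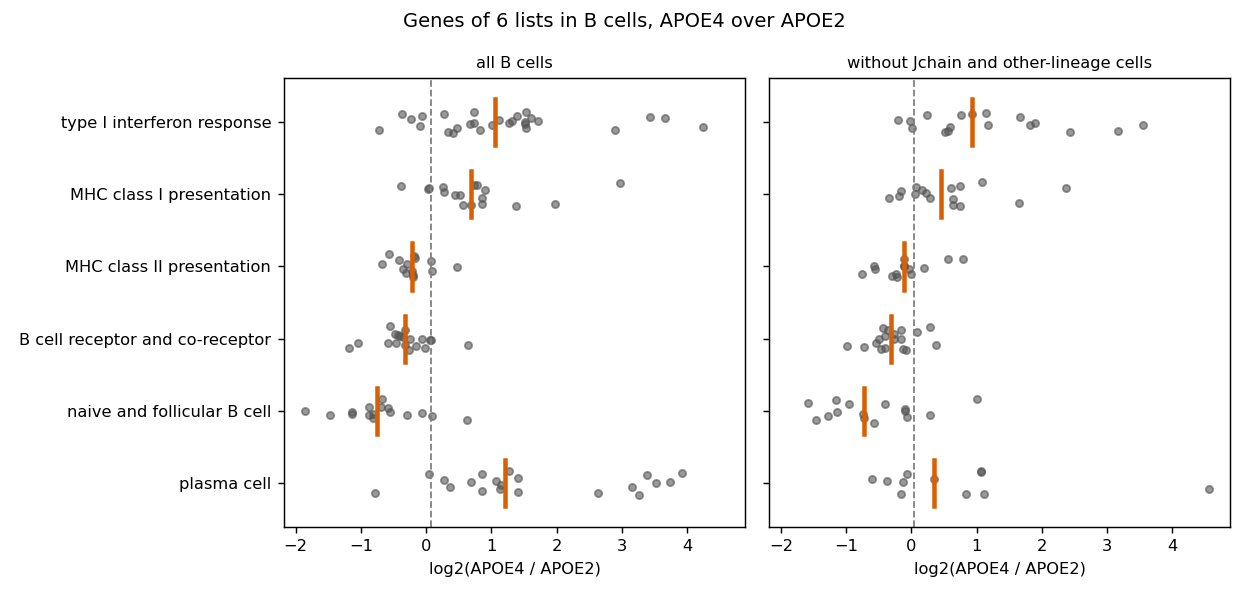
Log2 ratio APOE4/APOE2 of each gene with at least 20 UMIs (grey points) in 6 gene lists, in all B cells (left) and without the 7 Jchain cells and the 12 cells with another lineage's markers (right); orange bars are list medians and the dashed line is the median of all genes. The interferon median is 1.06 on the left and 0.93 on the right, that of naive and follicular genes -0.75 and -0.73, and that of plasma cell genes 1.21 and 0.34.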

How the data were processed

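The deposited matrices hold UMI counts per gene and barcode, not normalized, from Cell Ranger 3.0.1 per the file headers, on mm10 per the submitters' processing notes. A deposited table made with Seurat 3.0.2, per those notes, gives each annotated cell's library, cell type name and percent of mitochondrial UMIs as the authors computed it. Its B cells all come from cluster 21. The labels and headers do not say whether counting used strand, how cells were named or whether doublets were removed; no doublet caller was run here. Matrix UMI totals exceed the table's by a median of 1 and at most 241.

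Counts were summed over B cells per library and scaled to CPM. Levels carry exact Poisson intervals, shares Clopper-Pearson intervals and ratios exact conditional binomial intervals (95%, scipy 1.17.1). Intervals of share ratios are normal on the log scale. A count of 0 in a library got 0.5 added to both counts in list medians. UMIs were thinned without replacement to 1500 per cell (seed 1). Genes were listed when at least 20 UMIs lay in B cells, and 2-fold was the size of a call. Named genes were the 12 highest and 12 lowest ratios by the interval bound nearest 1, and the 25 highest against other cells, under the limits given in the text. Genes of ribosomes, mitochondria, haemoglobin and antigen receptor segments, and markers of sex, were not named. Positions are from GENCODE M21, which held 27645 of 27998 gene IDs. The interval code was tested on simulated counts. The members and gene lists were chosen with earlier results of these data known, and the views without Jchain cells, or without these and cells with another lineage's markers, were added after seeing the data. Alternatives covered denominators, thinning, UMI minimums, scaling, mitochondrial limits and cell definitions. Trac, Trbc1, Trbc2 and Mx2 were not analysed here, and a few genes are not reported here.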

Additional observations from a re-analysis of the deposited data

Results flagged for a closer look

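Signal of B cells also lay outside the annotated label. Cells of other labels that were positive for B cell markers were 2 CD4+ T cells, 2 Ki67+ CD8+ T cells and 1 each of Mø cluster 2, stromal cells and cDC 2 in APOE4, and 2 monocytic DCs, 2 cells of Mø cluster 1 and 1 of Monocytes 1 in APOE2. Barcodes outside the annotation that were positive for B cell markers numbered 12 in APOE4 and 6 in APOE2. Their median mitochondrial share was 12.02% in APOE4 and 12.74% in APOE2, and 15 of the 18 had at least 1500 UMIs and under 15% mitochondrial UMIs.

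The cells that the authors named Ki67+ CD8+ T cells held 1183 Jchain UMIs in APOE4 and 0 in APOE2. Of these, 732 and 449 lay in 2 cells with 0 UMIs of Cd3e, Cd3g and Cd8a, 68 and 181 UMIs of Mzb1, and 6 and 7 UMIs of Cd79a. Mki67 had 4 and 17 UMIs in them. Of all Jchain UMIs among barcodes, the B cell label held 79.7% of 6002 in APOE4 and 67.6% of 173 in APOE2.

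Barcodes outside the annotation held 50 Jchain UMIs in APOE2, 48 of them in 1 barcode of 540 UMIs with 16.7% mitochondrial RNA. What these barcodes are was not tested.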

How the results depend on the processing

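No paired analysis was possible because each genotype has 1 library, and for the same reason no replicate could be left out. The depth of 62 and 36 cells limits every value. The ratio of B cell shares was 0.735 with lymphoid labels as denominator and 0.966 under 5% mitochondrial UMIs, where 5 APOE4 and 4 APOE2 B cells remained. Genes at least 2-fold higher in APOE4 numbered 84 after thinning (7.57% of 1109), 912 and 124 with minimums of 10 and 50 UMIs (15.8% of 5758 and 8.13% of 1526), 69 under 5% mitochondrial UMIs (20.8% of 331) and 303 without Jchain cells and cells with another lineage's markers (11.7% of 2586), against 466 in all B cells (12.9% of 3625). Genes at least 2-fold lower numbered 51, 469, 49 and 63 under the first 4 of these settings (4.6, 8.15, 3.21 and 19.0%) and 331 over all marker-positive cells (6.94% of 4767), against 197 (5.43%). The interferon median kept its sign in every alternative run, between 0.92 and 1.40, as did that of naive and follicular genes, between -1.23 and -0.38. By the mean of each cell's CPM the medians in all B cells were 1.00 for type I interferon, 0.59 for interferon gamma and 0.48 for MHC class I. Naive and follicular genes then had -0.73 and plasma cell genes 0.76. Without the cell of highest UMI count in each library these 5 medians were 1.13, 0.97, 0.70, -0.65 and 1.19. Under 5% mitochondrial UMIs the medians were 0.01 for interferon gamma genes (1 gene), -0.81 for MHC class II and 3.49 for plasma cell genes. The plasma cell median was 0.04 without Jchain cells and 0.34 without those and the other-lineage cells. The median of inhibitory receptors turned to 0.44 after thinning, and the log2 ratio of Klf4 to 0.30 over marker-positive cells; the cause was not tested. Of the values of single named genes under settings that could change them, 198 of 240 kept within their interval. After thinning the log2 ratio went from 2.69 to 1.44 for Rexo2, 1.53 to 1.01 for Ifi27l2a and 3.53 to 0.22 for Slamf7. On the lower side it went from -2.26 to -0.61 for Klf3, -1.56 to -0.20 for Aldh2 and -1.84 to -0.78 for Apoe. By the mean of each cell's CPM it was -1.31 for Fcgr2b, -0.75 for Klf4 and -0.65 for Aldh2, against -2.04, -1.76 and -1.56.

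The summed level of 9 B cell markers was 5638 CPM in APOE4 B cells, 7656 after thinning and 6482 without Jchain cells. In APOE2 B cells it was 7502 CPM, 8296 after thinning and 8046 without cells with another lineage's markers. Cells with at least 3 members numbered 15 for germinal centre, 55 for B1 and marginal zone, 25 for memory, 19 for regulatory and 44 for proliferation genes. After thinning they numbered 1, 27, 5, 4 and 12, and with 2 members 35 for germinal centre, 42 for memory, 37 for regulatory and 74 for proliferation genes. After thinning, T cell markers had 108 CPM in APOE4 B cells, monocyte and macrophage markers 96.8 CPM in APOE4 and 722 CPM in APOE2, and neutrophil, dendritic cell and pDC markers 473, 43 and 0 CPM in APOE4.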

Other observations

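Genes of BAFF, APRIL and CD40 signalling were mixed between the libraries. Of 6 with at least 20 UMIs 4 were higher and 2 lower in APOE4 B cells, with a median log2 ratio of 0.16. Tnfrsf13b, the receptor TACI, had 134 CPM in APOE4 and 128 CPM in APOE2 B cells, and Cd40 had 70.0 and 45.1 CPM. Tnfrsf17, the receptor BCMA that plasma cells use to survive, had 10 UMIs in APOE4 and 0 in APOE2 B cells, all 10 in 4 of the Jchain cells.

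Of the cytokines, Ltb, which B cells use to organise lymphoid tissue, was the most abundant, with 524 CPM in APOE4 and 692 CPM in APOE2 B cells, a ratio of 0.757 (0.586 to 0.982). Tgfb1 had 182 CPM in APOE4 and 369 CPM in APOE2 B cells, a ratio of 0.494 (0.336 to 0.731), and 0.472 (0.297 to 0.751) without the 19 cells. Il6, Csf2 and Ccl22 were at 0 in both. Tlr7 had 10 UMIs in APOE4 and 2 in APOE2 B cells and Tlr9 1 in each, while the adaptor Myd88 had 18 UMIs in 15 APOE4 cells and 0 in APOE2.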
